A study of Homo sapiens with 4 samples.

Results

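Tetraspanins are small membrane proteins that cross the membrane repeatedly and expose a short and a long extracellular loop. They gather integrins, immunoglobulin superfamily proteins, receptors and proteases into membrane microdomains, and in B cells they are known for organizing receptors at the surface. The 10 tetraspanin genes described here, CD9, CD37, CD53, CD63, CD81, CD82, CD151, TSPAN3, TSPAN14 and TSPAN33, were found by symbol among the 25066 genes of a log2 expression table, and all 10 were present and well above detection. The set was chosen by family name and by the measured log2 differences between genotypes, among which those of CD82 and CD9 were large and of opposite sign, so the values of the 10 genes are descriptions and no test was made on them.

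The data were RNA sequencing of NUDUL1 cells, a human diffuse large B cell lymphoma line of germinal center type. Cells came from a single-cell clone with doxycycline-inducible Cas9, were transduced with Tbxa2r, a thromboxane receptor that couples to Gα13, and carried either a control guide RNA (control, 2 libraries) or a guide RNA against GNA13 (GNA13-deficient, 2 libraries), with 1 guide per genotype. All 4 libraries were from cells given the thromboxane mimetic U46619 at 10 nM for 24 h, so both genotypes shared Cas9, the receptor and the agonist, and untreated cells were not part of the comparison. The question was how gene expression under Gα13 stimulation depends on Gα13. No source says whether duplicates were separate cultures, so p values measure the spread between these libraries, which may be technical.

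Each library held between 29209544 and 31537955 mapped reads, and a floor of 3 reads lay at log2 values from 1.56 to 1.69. GNA13 mRNA was not lower in the libraries labelled GNA13-deficient. Its log2 values were 12.46 and 12.45 in control against 13.10 and 13.11 in those libraries (difference 0.65, limma adjusted p = 0.00214, SE 0.05, the standard error). The label names the guide RNA, and an mRNA level does not show whether protein was lost. In the paper, NUDUL1 cells carrying a GNA13 guide outgrew untransduced cells with U46619 and not without it. Whether reads of a related sequence, such as a pseudogene, were counted with it was not tested. Protein was not measured here, and the genotype is written below as labelled. All 5 B cell markers were detected, with summed normalized reads of 53600 to 57800 in control and 51800 to 56000 in the others. The sums hide opposite calls, with 1 marker higher and 1 lower, MS4A1, which fell by 0.57 (limma adjusted p = 0.00477). Of the germinal center markers, MME was at log2 values of 13.99 to 14.07 and MEF2B had 3 to 11 reads, while BCL6 fell by 2.49 (limma adjusted p = 0.00085). In bulk RNA, fewer cells of a type and less RNA per cell cannot be told apart. The T cell markers CD3D, CD3E and CD2, the platelet markers PF4 and GP9 and the epithelial keratins KRT8 and KRT18 were listed at 0 in every library. Summed normalized reads of the 5 T cell markers were 122 to 177 in control and 5.38 to 12.3 in the libraries labelled GNA13-deficient, nearly all from CD4, and those of the 4 myeloid markers were 228 to 242 and 26.9 to 27.7. The summed stromal and endothelial markers were 117 to 122 and 25.8 to 26.7. In control this sum was nearly all from PECAM1, with 112 and 115 reads against 11 and 16. COL1A1, the other marker of that list, had 8 and 4 reads in control against 15 and 8. The summed epithelial markers, which came from EPCAM, were 37.7 to 45.3 and 90.3 to 104. These sums moved with genotype, and their part in the results below was not tested.

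CD9 and CD82 differed most between genotypes among the 10 genes. CD9, an adhesion tetraspanin of platelets and B cell subsets that binds integrins and immunoglobulin superfamily proteins, lies on chromosome 12 from 6308881 to 6347437 on the plus strand (GRCh37). Its log2 values were 11.80 and 11.91 in control replicates 1 and 2, against 7.99 and 8.17 in those labelled GNA13-deficient, which correspond to 3499 and 3911 reads against 248 and 267. The genotypes were far apart and did not overlap, with a difference of -3.78 (SE 0.10, n = 2 and 2), or 13.7-fold lower. Among the 5351 tested genes with a mean level at or above its own, CD9 had the most negative difference.

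CD82, first known as a suppressor of metastasis and induced on activated leukocytes, lies on chromosome 11 from 44585977 to 44641908 on the plus strand. It had 288 and 313 reads in control and 1411 and 1419 reads in the libraries labelled GNA13-deficient, at log2 values of 8.20 and 8.27 against 10.50 and 10.58. The difference was 2.31 (SE 0.05), or 4.95-fold higher, and the genotypes did not overlap. Among the 6488 tested genes at or above its mean level, CD82 had the most positive difference. CD82 had the fewest reads of the 10 in both control libraries, and CD9 had the fewest in both libraries labelled GNA13-deficient.

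**Figure D1:**
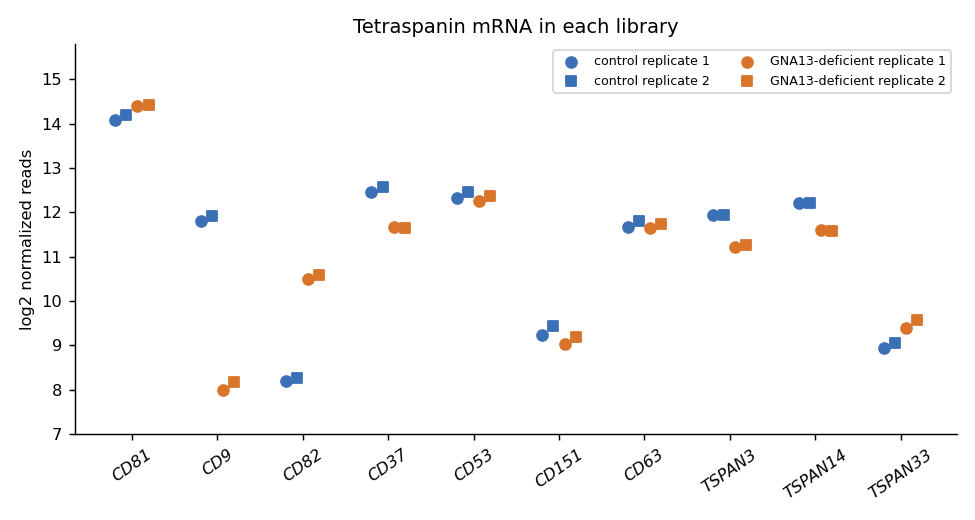
Log2 normalized reads of the 10 tetraspanin genes in each of the 4 libraries, with blue for control, orange for libraries labelled GNA13-deficient, circles for replicate 1 and squares for replicate 2. The genotype means of CD9 are 11.85 in control and 8.08 in the others and those of CD82 are 8.23 and 10.54, while CD53 and CD63 overlap between genotypes.

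The start regions of these genes are shown because their mRNAs stood at the opposite ends of the set. RefSeq lists 1 start for CD82 and 4 for CD9; the CD9 window printed is the second along the gene, chosen after its letters were seen for holding the most GC boxes. Each window runs from 250 bases before to 50 bases after the start, 5′ to 3′ on the plus strand of GRCh38.p14, and capitals mark GC boxes, GGGCGG on either strand, the letters that factors of the Sp family bind. The CD82 window is chr11:44565413-44565712 and the CD9 window is chr12:6200150-6200449.
CD82: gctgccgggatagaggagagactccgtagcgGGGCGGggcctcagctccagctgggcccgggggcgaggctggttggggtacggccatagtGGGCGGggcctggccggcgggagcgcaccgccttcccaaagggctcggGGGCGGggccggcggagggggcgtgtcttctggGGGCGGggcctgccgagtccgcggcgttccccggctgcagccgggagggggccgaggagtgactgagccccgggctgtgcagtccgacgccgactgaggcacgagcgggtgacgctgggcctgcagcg
CD9: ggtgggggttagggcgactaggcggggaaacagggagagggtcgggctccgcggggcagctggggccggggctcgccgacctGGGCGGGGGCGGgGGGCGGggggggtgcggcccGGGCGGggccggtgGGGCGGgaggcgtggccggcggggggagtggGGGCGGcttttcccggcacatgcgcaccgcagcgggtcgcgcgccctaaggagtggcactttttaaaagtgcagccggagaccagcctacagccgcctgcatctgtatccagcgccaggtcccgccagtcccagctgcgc
The CD82 window held 4 GC boxes and 76.7% G and C, and this CD9 window held 6 and 75.7%. The other CD9 windows held 0, 3 and 0. Of 34796 distinct promoter windows of this length, 44.9% hold a GC box. The TATA box (TATAAA, in 11.6% of all windows), the E-box (CACGTG, in 7.20%), the AP-1 site (TGANTCA, in 7.73%) and the FOXO site (GTAAACA, in 3.42%), searched on both strands, were not found in the printed windows. These letters describe the windows and do not show which start the cells used.

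CD81, a widely expressed tetraspanin that also serves hepatitis C virus as an entry receptor, had the most reads of the 10, 16972 and 19023 in control and 20952 and 20519 in the others. It lies on chromosome 11 from 2397407 to 2419032. Its log2 values were 14.08 and 14.19 in control against 14.39 and 14.43 in those labelled GNA13-deficient, differing by 0.28 (SE 0.06). The genotypes did not overlap, although the gap between them was small beside that of CD9. It was 0.06 under quantile normalization and 0.49 with each library centred on its median.

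The leukocyte tetraspanins CD37 and CD53 differed in how far their genotypes lay apart. CD37, found mainly on mature B cells, had log2 values of 12.47 and 12.58 in control against 11.66 and 11.64 in those labelled GNA13-deficient, differing by -0.87 (SE 0.05), or 1.83-fold lower. The gene lies on chromosome 19 from 49838428 to 49846592 and overlaps TEAD2 on the opposite strand. CD53, a marker of nearly all leukocytes on chromosome 1 from 111413810 to 111442544, had log2 values of 12.33 and 12.45 against 12.26 and 12.37. Its genotypes overlapped, with a difference of -0.08 (SE 0.08).

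CD151, a partner of laminin-binding integrins, and CD63, a resident of late endosomes and secreted vesicles, showed small differences. CD151 was at 9.23 and 9.43 in control against 9.04 and 9.20 in those labelled GNA13-deficient, differing by -0.21 (SE 0.13). The genotypes were separated by less than the replicates of either, and the gene, on chromosome 11 from 832887 to 839831, overlaps POLR2L on the opposite strand. The difference of CD151 was -0.00 under median centring and ran from -0.31 without control replicate 1 to -0.11 without control replicate 2, with -0.13 without GNA13-deficient replicate 1. CD63, on chromosome 12 from 56119107 to 56123491, was at 11.66 and 11.81 against 11.64 and 11.73, with overlap and a difference of -0.05 (SE 0.09). Without control replicate 2, the higher of the control libraries, the difference was 0.02.

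TSPAN14 and TSPAN33 belong to the TspanC8 group, which escorts the sheddase ADAM10 to the surface, and their differences had opposite signs. TSPAN14 lies on chromosome 10 from 82214021 to 82292880 and TSPAN33 on chromosome 7 from 128784724 to 128809540. TSPAN14 had log2 values of 12.22 in both control libraries, against 11.60 and 11.59 in the others, differing by -0.63 (SE 0.01). TSPAN33, which marks activated and some malignant B cells, was at 8.93 and 9.06 against 9.39 and 9.57, differing by 0.48 (SE 0.11). TSPAN3, a broadly expressed tetraspanin on chromosome 15 from 77333745 to 77376326, was at 11.94 in both control libraries and at 11.23 and 11.26 in the others, differing by -0.70 (SE 0.02). The standard errors of TSPAN3 and TSPAN14 were the smallest of the 10, and neither gene overlapped between genotypes.

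Of the 10 genes, 3 (CD81, CD82 and TSPAN33) lay higher and 5 (CD9, CD37, CD151, TSPAN3 and TSPAN14) lower in both libraries labelled GNA13-deficient than in both control libraries. Across all 16945 genes tested, 65.3% did not overlap between genotypes, 31.3% as higher and 34.0% as lower, and nothing is read from the members' count, since this contrast chose them. The median difference of the 10 was -0.15, against -0.02 for all genes tested. Centring each library on its median shifted the median of all genes to 0.18 and that of the members to 0.06; under it CD53 was 0.13 and CD63 was 0.16, while CD9 was -3.57 and CD82 was 2.52.

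**Figure D2:**
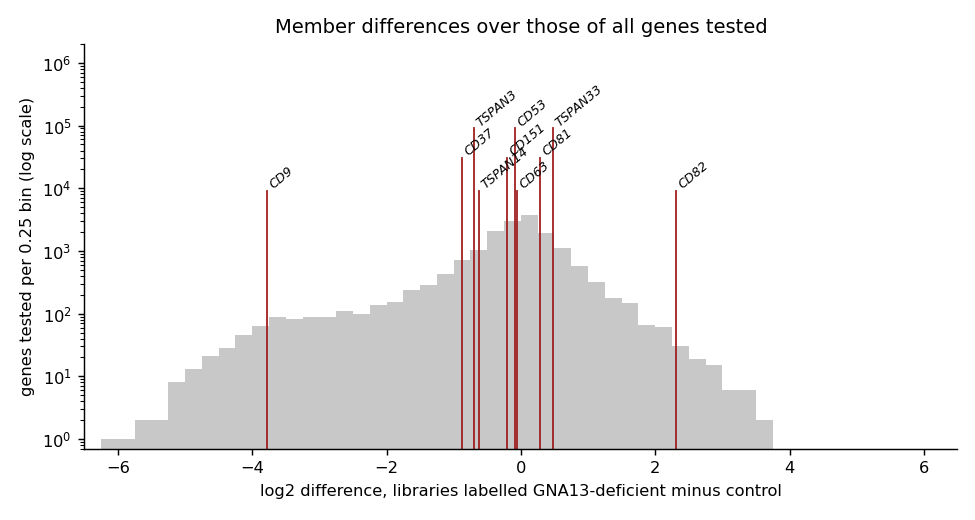
Grey bars count the genes tested in each 0.25-wide bin of the log2 difference, libraries labelled GNA13-deficient minus control, on a log axis, and red lines mark the 10 members. CD9 at -3.78 and CD82 at 2.31 lie in the tails, and the other 8 lie between -0.87 and 0.48.

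Levels between genes were compared as normalized reads per kilobase of the longest annotated transcript. In control CD81 (mean 3440) and CD53 (3430) led and their libraries overlapped, at 3300 and 3580 for CD81 and 3290 and 3580 for CD53. CD63 (2770), CD37 (1860), CD9 (1110), TSPAN3 (619), CD151 (347), TSPAN14 (295), TSPAN33 (185) and CD82 (136) followed on this scale, with no overlap between neighbours. In the libraries labelled GNA13-deficient the order was CD81 (4160), CD53 (3240), CD63 (2670), CD37 (1010), CD82 (672), TSPAN3 (381), CD151 (300), TSPAN33 (258), TSPAN14 (190) and CD9 (81.0), again with no overlap. CD82 thus went from last to the fifth place and CD9 from the fifth to last.

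The order depended on the length used. Per kilobase of coding sequence CD81 stood alone in control, at 19800 against 8200 for CD53, and TSPAN14, whose longest transcript has 16221 bases, was at 5910, above CD63 (4780) and CD9 (4570). CD63 and CD9 overlapped on this scale in control, and CD37 and TSPAN14, both at 3810, overlapped in the libraries labelled GNA13-deficient. CD82 was the lowest in control (375) and CD9 the lowest in the others (334) on this scale too.

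The human tetraspanin family has 33 genes, and the 10 members made up 93.2% and 93.3% of the family's reads per coding kilobase in control, against 95.4% and 95.2% in the others. CD81 alone took 32.0% and 32.5% of that sum in control and 45.2% and 44.6% in the others. The share of CD9 was 7.40% and 7.49% in control against 0.600% and 0.651%, and that of CD82 was 0.616% and 0.606% against 3.45% and 3.50%. The whole sum was 59400 and 63400 in control against 52400 and 54400 in those labelled GNA13-deficient, so the larger share of CD81 stood on a smaller total.

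**Figure D3:**
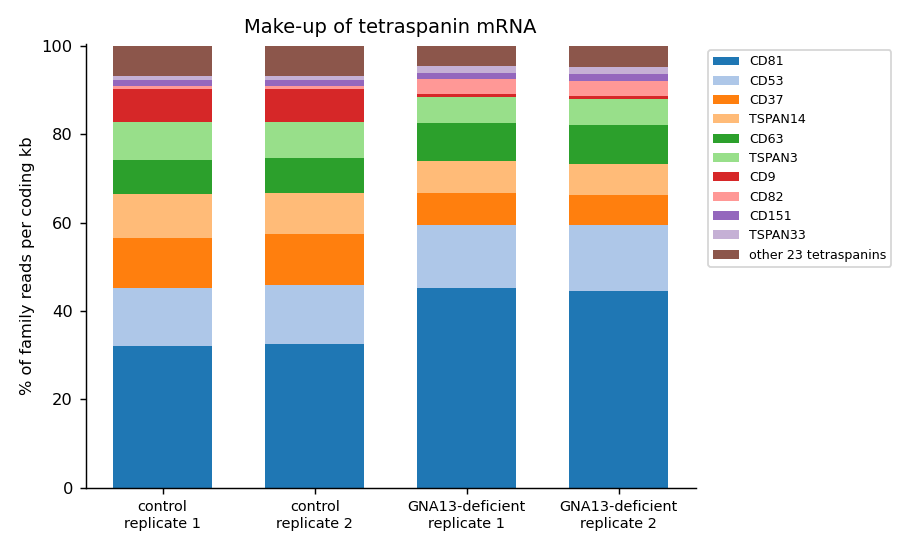
Stacked bars give each tetraspanin's percentage of the family's normalized reads per coding kilobase in each of the 4 libraries, with the 23 other family genes pooled. CD81 takes 32.0% and 32.5% in control, against 45.2% and 44.6% in libraries labelled GNA13-deficient, and the CD9 band nearly vanishes.

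The other 23 tetraspanins were tested with limma among all 16945 genes. Of these, 14 were listed above 0 in at least 2 libraries and were tested, and 11 of the 23 had 3 reads or fewer in every library. With an adjusted p under 0.05, 3 genes rose and 5 fell. Among all genes tested 29.7% were called, 13.1% as higher and 16.6% as lower. Under median centring 3 of these tetraspanins rose and 3 fell, against 4311 higher and 1924 lower of all 16945 genes. When only genes at or above the median mean level were tested, 6 of these tetraspanins were called, and 5579 of all 12533 genes tested. The median difference of the 14 tested tetraspanins was -0.06.

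TSPAN16, a little studied family member, had 78 and 80 reads in control against 6 and 3 in those labelled GNA13-deficient, and fell by 4.15 on the log2 scale (limma adjusted p = 0.00387, SE 0.43). TSPAN4, which sits close to CD151 on chromosome 11 and is known from migrasomes, fell by 1.70, from 7.60 and 7.87 to 6.21 and 5.86 (limma adjusted p = 0.00565, SE 0.21). TSPAN13 was at 10.18 and 10.24 in control and 8.86 and 9.22 in the others, differing by -1.17 (limma adjusted p = 0.00480, SE 0.13). Each of these 3 genes was lower in both libraries labelled GNA13-deficient.

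TSPAN17, a TspanC8 gene like TSPAN14, fell by 0.39 (limma adjusted p = 0.0246, SE 0.08), from 9.58 and 9.68 to 9.18 and 9.29. TSPAN31, whose gene overlaps CDK4 on the opposite strand, fell by 0.39 (limma adjusted p = 0.0310, SE 0.09). Neither call held under median centring, where both were at -0.18 (adjusted p = 0.202 and 0.198), or without a variance trend, and that of TSPAN31 was also lost under quantile normalization (adjusted p = 0.0777). TSPAN18 rose from 18 and 27 reads to 67 and 60, by 1.59 (limma adjusted p = 0.0196, SE 0.31); it overlaps TP53I11 on the opposite strand, and whether counting used strand is not given in the sources used here.

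TSPAN9, TSPAN32 and ROM1, a photoreceptor tetraspanin, did not pass the test. Their differences were -0.28 (SE 0.18), 0.60 (SE 0.36) and 0.16 (SE 0.48). The remaining 2 calls were at low depth and are named because they complete the count. TSPAN7 had 2 and 2 reads in control against 11 and 8 in those labelled GNA13-deficient. TSPAN10 had 1 read in control replicate 1, was listed at 0 in control replicate 2, and had 3 and 5 reads in the others.

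Proteins that tetraspanins bind or traffic were taken as a list of 36 genes, all in the table and 33 of them tested. Of these, 9 rose and 10 fell, against the same 13.1% and 16.6% of all genes, and 14 did not pass. When only genes at or above the median mean level were tested, 5579 of 12533 were called, 22 of them partners. Under median centring 12 partners rose and 5 fell, against 4311 higher and 1924 lower of all 16945 genes. The median difference of the 33 tested partners was -0.10.

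CR2 and IFITM1, which associate with CD81 at the B cell surface, were both lower in the libraries labelled GNA13-deficient. CR2, the complement receptor CD21, had 34 and 36 reads against 7 and 14 and fell by 1.75 (limma adjusted p = 0.0461, SE 0.46). IFITM1, an interferon-induced gene, fell by 3.31, from 8.99 and 9.30 to 5.97 and 5.69 (limma adjusted p = 0.00117, SE 0.18), and it shares sequence with other IFITM genes, between which counting could split reads. The call of CR2 was lost under quantile normalization (adjusted p = 0.103), median centring (0.059) and without a variance trend (0.0877).

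Among immunoglobulin superfamily partners of CD9 and CD81, IGSF8 was called higher, PTGFRN and IGSF3 were listed at 0 in every library, and CD101, listed as IGSF2, had 0 and 2 reads in control and 5 and 7 in the others (limma adjusted p = 0.0337). The call of this low-count gene was lost with a pseudocount of 1, a robust prior, voom and no variance trend (adjusted p from 0.0512 to 0.0977). Of the integrin chains, ITGA4 rose by 0.40 (limma adjusted p = 0.0370, SE 0.10), a call lost under quantile normalization (adjusted p = 0.0962), voom (0.0522) and without a variance trend (0.131), and ITGA3, a chain that pairs with CD151, fell by 1.44, from 8.22 and 8.17 to 6.86 and 6.64 (limma adjusted p = 0.00338, SE 0.14). ITGB1, the shared beta chain, was at -0.18 (limma adjusted p = 0.0751, SE 0.06), and ITGA6 did not pass. CD151 itself, the tetraspanin of these integrins, differed by -0.21.

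ADAM10, the sheddase that TspanC8 proteins carry, was at 12.38 and 12.35 in control against 12.13 and 12.03 in those labelled GNA13-deficient and fell by 0.28 (limma adjusted p = 0.0238, SE 0.06). Under median centring it was at -0.08 and was not called (adjusted p = 0.350), nor was it without a variance trend (adjusted p = 0.116). ADAM17, a related sheddase, was also called lower. Of 7 ADAM10 substrates, 2 were higher and 2 lower, against 13.1% and 16.6% of all genes. APP, the amyloid precursor protein, rose by 0.74 (limma adjusted p = 0.00409, SE 0.08), and NOTCH2, a receptor that ADAM10 cleaves on activation, fell by 0.63 (limma adjusted p = 0.0300, SE 0.14). NOTCH2 was not called under median centring (-0.42, adjusted p = 0.0915) or without a variance trend (adjusted p = 0.113).

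Of 8 late endosome and vesicle genes, 2 were higher and 2 lower, against 13.1% and 16.6% of all genes, while CD63 overlapped between genotypes. AP3B1, a subunit of the adaptor that sorts CD63 to lysosomes, rose from 14.04 and 14.01 to 14.57 and 14.59, by 0.56 (limma adjusted p = 0.00485, SE 0.06). SDCBP, which encodes the CD63-binding protein syntenin, was among those called lower. Of the 8 remaining partners 7 were tested, with 1 called higher and 1 lower.

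**Figure D4:**
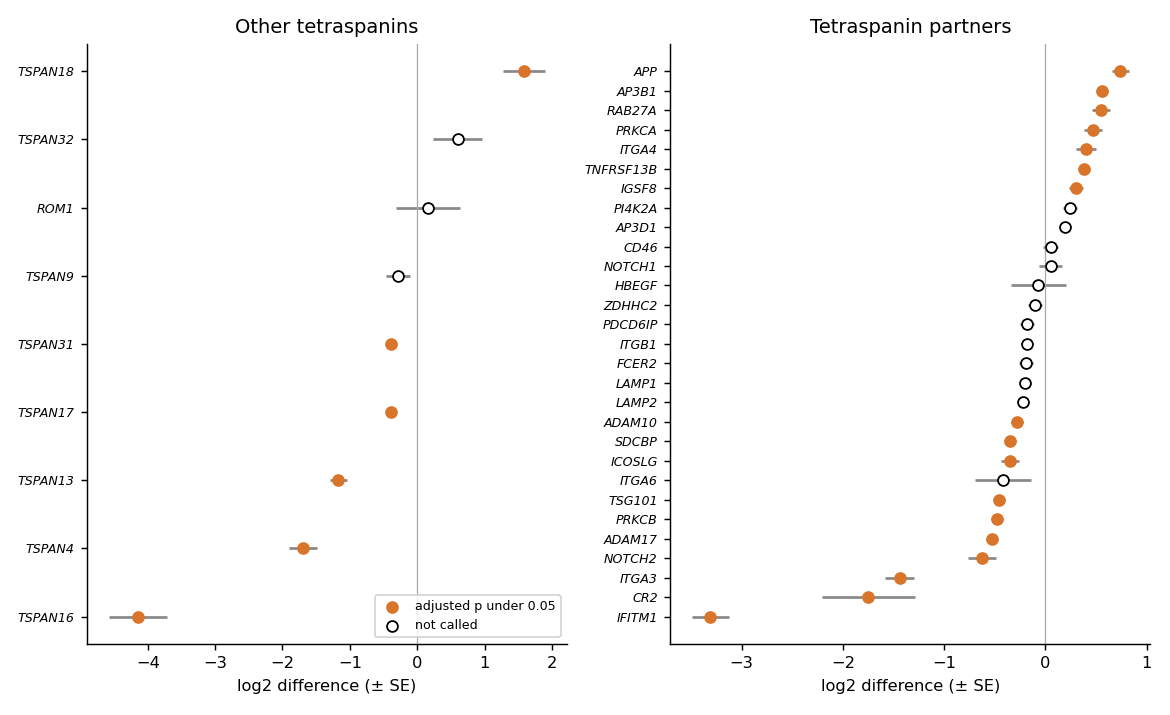
Points give limma's log2 difference, libraries labelled GNA13-deficient minus control, with its standard error, for tested genes with a mean of at least 10 normalized reads, 1 partner left out; filled points have an adjusted p under 0.05. TSPAN16 at -4.15 and IFITM1 at -3.31 are the lowest of their panels, and TSPAN18 at 1.59 and APP at 0.74 the highest.

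The genes beside CD82 and CD9 on their chromosomes were read next, 5 tested genes on each side of each. Of the 20 neighbours, 2 were called higher and 8 lower, against 13.1% and 16.6% of all genes. Under median centring 5 were higher and 5 lower, against 4311 and 1924 of all 16945 genes. When only genes at or above the median mean level were tested, 11 neighbours were called, and 5579 of all 12533 genes tested. Of the 10 around CD82, 1 was higher and 5 lower. The nearest on its far side was TSPAN18, another tetraspanin, whose start lies 162 kb away and which rose by 1.59 as given above. On the other side EXT2, a heparan sulfate polymerase that starts 469 kb away, fell by 0.45 (limma adjusted p = 0.0131, SE 0.08). EXT2 was not called under median centring (-0.25, adjusted p = 0.091) or without a variance trend (adjusted p = 0.0634).

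ACCS and ALKBH3, a demethylase of alkylated nucleic acids, had the most negative differences among the 10 neighbours of CD82. ACCS had 209 and 212 reads in control against 14 and 16 in those labelled GNA13-deficient, and fell by 3.74 (limma adjusted p = 0.00151, SE 0.23). ALKBH3 had 160 and 153 reads against 10 and 12 and fell by 3.77 (limma adjusted p = 0.00182, SE 0.27). HSD17B12, the next gene out, overlapped between genotypes (difference -0.02). TTC17, beyond it, fell by 0.50 (limma adjusted p = 0.0106), and SLC35C1, on the other side of CD82, fell by 0.33 (limma adjusted p = 0.0319). The call of SLC35C1 was lost under quantile normalization (-0.23, adjusted p = 0.0883), median centring (-0.12, adjusted p = 0.277) and, as that of TTC17 (adjusted p = 0.0641), without a variance trend (adjusted p = 0.0897).

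Around CD9, 1 of 10 neighbours was higher and 3 were lower, against 13.1% and 16.6% of all genes. TNFRSF1A, the main receptor for tumor necrosis factor and the nearest tested gene after CD9 at 129 kb, had 97 and 116 reads in control and 9 and 10 in the others, and fell by 3.41 (limma adjusted p = 0.00239, SE 0.29). CD27, a costimulatory receptor of memory B cells 245 kb from CD9, fell by 2.57, from 9.16 and 9.34 to 6.58 and 6.78 (limma adjusted p = 0.00114, SE 0.14). TAPBPL, which starts 252 kb away and overlaps the end of CD27, fell by 0.41 (limma adjusted p = 0.0418, SE 0.10). TAPBPL was not called under quantile normalization (-0.28, adjusted p = 0.124), median centring (-0.20, adjusted p = 0.249) or without a variance trend (adjusted p = 0.0983). On the other side the nearest tested gene was the potassium channel gene KCNA5, 1156 kb away. KCNA5 was listed at 0 in both control libraries and had 2 and 2 reads in the others, which is too few for a fold. KCNA6, also a potassium channel gene, rose by 1.5 from 35 and 32 to 111 and 73 reads (limma adjusted p = 0.0185, SE 0.28).

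**Figure D5:**
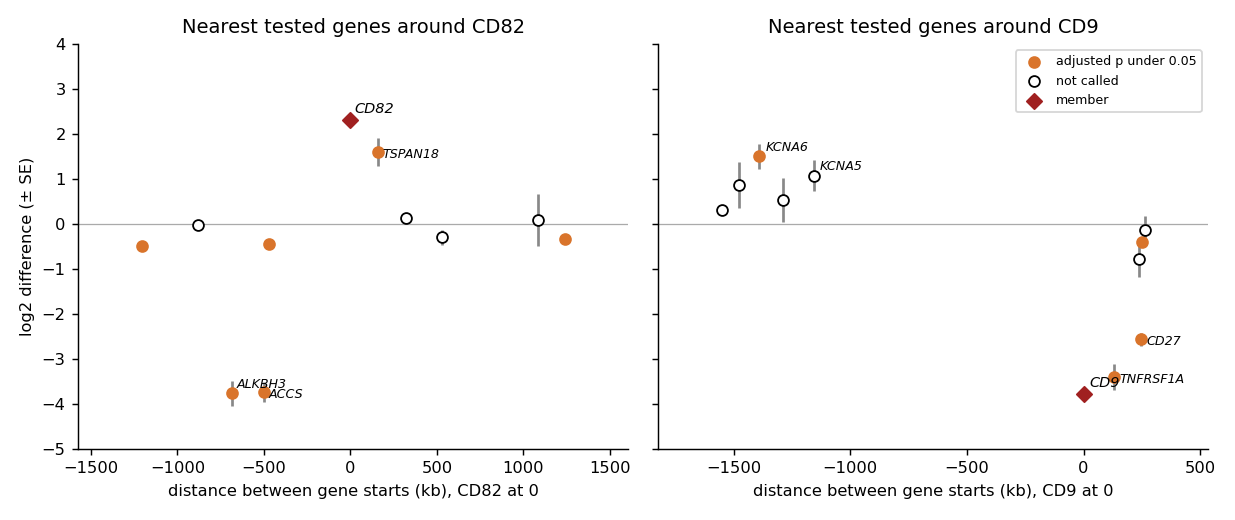
Log2 differences with standard errors of the 10 nearest tested genes around CD82 (left) and CD9 (right) by distance in kilobases between gene starts; diamonds are the members, and filled points have an adjusted p under 0.05. TNFRSF1A at -3.41 and CD27 at -2.57 lie beside CD9 at -3.78, while ACCS and ALKBH3 lie near -3.74 and -3.77 on the side of CD82 opposite TSPAN18.

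These calls rest on 4 libraries. With any 1 of them left out, limma, which then takes the lone library of a genotype to vary like the pair, called 0 of the 16945 genes, with 5257 to 5600 at an unadjusted p under 0.05; voom on the recovered reads of all 4 libraries called 5012. Without the filter on low values, 1 of the other tetraspanins, 6 partners and 5 neighbours were called.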

How the data were processed

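RNA of NUDUL1 cells, 2 control and 2 GNA13-deficient libraries, was sequenced from stranded mRNA libraries. Alignment by the authors used STAR and hg19; the submitters' processing notes also name HTSeq, and the method of normalization, the annotation and versions are not given in the sources used here. The values were deposited as log2 normalized reads and used as they stand, with no pseudocount. A deposited row of mapped read totals gave the depth. Whole reads were recovered by undoing 1 constant per library (0.983, 1.02, 0.975 and 0.930): all values of up to 400 reads came out within 0.25 of a whole read. A value of 0 in control replicate 2 can stand for 1 read.

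Genes above 0 in at least 2 libraries (16945 of 25066) were fitted with limma 3.58.1 in R 4.3.3 (lmFit, eBayes with trend, genotype as the only term, 2 residual degrees of freedom) and adjusted by the Benjamini-Hochberg method over all of them at a threshold of 0.05. Standard errors of the 10 members are from the library values. Tables were made with Python 3.11.15. An exact permutation test of 2 against 2 libraries cannot go below 0.333. The fit was tested on simulated libraries. These had the same variability setting for all genes and far fewer changed genes than were called here, all well counted. They do not measure the error of the fit in these data.

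The members and lists were chosen with earlier results of these data known. Named genes were all members, GNA13, other tetraspanins with a mean of at least 10 normalized reads, CR2, ADAM10, ITGA4 and ITGB1, the 8 largest called partner differences, and the nearest and the called neighbours of CD82 and CD9; any other gene was named after its values were seen. 1 gene of the partner list is counted but not reported here. Positions and lengths are from GENCODE v44 on GRCh37, the assembly of hg19. RefSeq promoter windows were found for CD9, CD53, CD63, CD82, TSPAN14 and TSPAN33. Other settings were testing all genes, testing those at or above the median mean, pseudocounts of 1 and 10, quantile normalization, median centring, the replicate number as a block, no trend, a robust prior, voom on recovered reads, coding length and leaving out each library.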

Additional observations from a re-analysis of the deposited data

How the results depend on the processing

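CD9, CD82, CD37, CD81, TSPAN3, TSPAN14 and TSPAN33 kept their direction under every alternative tried; CD9 ranged from -3.86 to -3.57 and CD82 from 2.26 to 2.52, fits that leave out a library included. Under median centring CD53 was 0.13, CD63 0.16, ITGB1 0.03 and the members' median 0.06, each with its sign turned, and of 6235 calls 69.14% were higher, against 44.03% of 5037 as deposited. Quantile normalization turned TSPAN9 to 0.11. Leaving out 1 library gave -0.12 to 0.02 for CD63, and for ROM1 -0.34 (without GNA13-deficient replicate 1) to 0.66 (without GNA13-deficient replicate 2), with -0.17 without control replicate 2. It gave a members' median from -0.23 (without control replicate 1) to -0.07 (without control replicate 2), and 0 calls in each list. Without the filter on low values 1999 genes, 1 other tetraspanin, 6 partners and 5 neighbours were called, and without a variance trend 2718 genes and 7 partners. The causes were not tested. For other named genes, 46 values became weaker and 6 stronger outside the fits that leave out a library.

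No source pairs the libraries. Over 8473 genes, which share these libraries, the deviations of libraries with one number correlated at 0.453. The replicate block gave 6616 called genes, 8 other tetraspanins, 25 partners and 11 neighbours. Of the 23 other tetraspanins, 11 had at most 3 reads in every library, and no difference was detectable for them at this depth.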
